A study of Mus musculus with 7 samples.

Results

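Interferon response genes were examined in tibialis anterior (TA), a limb muscle made mostly of fast fibers, of mice that lack miR-486 (KO) and of wild-type mice (WT). The set was chosen by name, with earlier results of these data known. It holds 29 of the 48795 genes in the deposited table, and each symbol mapped to a single Ensembl identifier. Of these, 12 encode GTPases. They are 5 guanylate-binding proteins (Gbp2, Gbp3, Gbp4, Gbp6 and Gbp7), 6 immunity-related GTPases (Irgm1, Irgm2, Igtp, Iigp1, Tgtp1 and Tgtp2) and the dynamin-like GTPase Mx2. The other 17 members are 4 transcription factors (Stat2, Irf1, Irf7 and Irf9), 7 antiviral effectors (Ifit1, Ifit2, Ifit3, Oas1a, Oas2, Oasl2 and Rsad2), the ubiquitin-like modifier Isg15 with its protease Usp18, and 4 antigen presentation genes (Psmb8, Psmb9, Tap1 and Nlrc5).

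RNA was sequenced from 4 KO libraries and 3 WT libraries of 6-month-old male mice. The KO mice carry a CRISPR-made deletion in the hairpin of the miR-486 precursor, which lies in the Ank1 gene. The labels give miR-486-/- with strain FVB N/J for the KO group and wildtype with strain C57BL/6 for the WT group, whereas the WT columns of the table have FVB in their names, and a common background (first FVB/NJ, later C57BL/6J) is described in the study's methods. Strain and genotype therefore cannot be told apart in these data. The study's methods describe groups of several mice, with 1 more WT mouse than there are WT libraries here. The labels do not tie libraries to animals, so that the spread behind each p-value is that of libraries and may be technical in part.

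Interferons are cytokines released during infection. Type I interferons act through the kinases JAK1 and TYK2 to assemble a complex with STAT2 and IRF9, which binds the interferon-stimulated response element (ISRE). Interferon gamma acts through JAK1 and JAK2 on genes with a gamma-activated site (GAS) and induces Irf1. The guanylate-binding proteins and immunity-related GTPases are known in the mouse as strongly interferon gamma-induced proteins that gather on vacuoles holding intracellular parasites and bacteria, whereas the IFIT, OAS and viperin (Rsad2) proteins act against viral RNA and virus assembly. In bulk tissue a change in the number of cells of a type and a change in the RNA per cell cannot be told apart.

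Gene counts came to between 23839577 and 28168275 reads per library. Mitochondrially encoded genes took 15.8% to 17.9% of gene counts in KO libraries, against 13.3%, 13.0% and 22.4% in WT 1 to WT 3, so that WT 3 stood apart. The 6 fast muscle markers summed to between 116240 and 150704 CPM (read counts scaled to a library of standard size, with TMM factors) in every library, which fits the tissue label. Ank1, the host of the deleted hairpin, averaged 258 ± 13.1 CPM in KO (SD, n = 4) and 277 ± 18.8 CPM in WT (SD, n = 3), but gene-level counts do not cover the deletion and so do not check the genotype. KO 3 stood apart for part of the genes described here and not for depth or its mitochondrial share, and log2 fold changes below are given with and without it.

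The promoters of the members are shown first, because 4 of the immunity-related GTPases share a motif arrangement. RefSeq windows of 300 bases on GRCm38.p6, from 250 bases before to 50 bases after each start, were found for 22 of the 29 members. They were searched on both strands for the ISRE, spelled GAAANNGAAA, and the GAS, spelled TTCNNNGAA. These 2 motifs differ in letters but can overlap. An ISRE was found for 14 of the 22 genes, including 8 of 8 GTPases and 6 of 14 other members. By window it was in 14 of 26 member windows (53.8%), against 3.44% of all 32851 windows. A GAS was found for 9 of the 22 genes, of which 5 were GTPases. By window it was in 9 of 26 member windows (34.6%), against 8.30% of all windows. No window was found for the GTPases Gbp4, Gbp6, Iigp1 and Mx2. A GAS followed after a gap of 2 bases by an ISRE occurred in 5 of all 32851 windows, and these belonged to Tgtp1, Tgtp2, Igtp, Irgm2 and the gene model Gm12185, which shares transcript words with both Tgtp genes. Only this gap was searched, and it is the spacing in the excerpts of these members. The count is therefore a description and no measure of how rare such pairs of motifs are. The excerpts below run 5′ to 3′ along each gene, with the motif letters in capitals.
Tgtp1, chr11:48992299-48992349, minus strand: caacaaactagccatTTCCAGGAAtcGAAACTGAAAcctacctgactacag
Tgtp2, chr11:49064258-49064308, minus strand: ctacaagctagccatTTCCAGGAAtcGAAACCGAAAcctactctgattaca
Igtp, chr11:58199496-58199546, plus strand: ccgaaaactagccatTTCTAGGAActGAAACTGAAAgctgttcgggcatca
Irgm2, chr11:58214887-58214937, plus strand: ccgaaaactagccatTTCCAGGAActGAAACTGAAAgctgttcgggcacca
The excerpts of Igtp and Irgm2 were identical at 49 of 51 positions and those of Tgtp1 and Tgtp2 at 39 of 51. The GAS began at position -88 from the start of Tgtp1, -81 of Tgtp2, -45 of Igtp and -75 of Irgm2.

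For contrast, the next excerpts come from genes with only 1 kind of motif. Gbp2 carries a single ISRE, Irgm1, Isg15 and Ifit1 carry repeated ISREs, and Irf1 carries a GAS alone. TTTCNNTTTC is the ISRE read on the opposite strand.
Gbp2, chr3:142620589-142620628, plus strand: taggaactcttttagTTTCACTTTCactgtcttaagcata
Irgm1, chr11:48871420-48871465, minus strand: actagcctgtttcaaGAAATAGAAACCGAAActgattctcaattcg
Isg15, chr4:156200860-156200911, minus strand: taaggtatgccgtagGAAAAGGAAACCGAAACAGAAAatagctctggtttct
Ifit1, chr19:34640770-34640828, plus strand: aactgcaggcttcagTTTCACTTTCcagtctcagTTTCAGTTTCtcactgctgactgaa
Irf1, chr11:53769909-53769947, plus strand: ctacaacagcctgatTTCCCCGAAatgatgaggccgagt
Neither motif was found in the windows of 5 of the 22 genes, among them Tap1 and Psmb9. A match is a description of letters and was not tested for binding.

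All 29 members passed the filter on low counts. Gbp6, Tgtp1 and Oas1a would not have passed on their WT libraries alone, and passed through KO, where they were higher. In WT 1 to WT 3 they had 10, 6 and 10 reads (Gbp6), 17, 10 and 4 (Tgtp1) and 10, 4 and 13 (Oas1a). They stay in the counts and medians below, where their higher values in KO cannot be taken as support. None of the 29 had an adjusted p under 0.05 in KO against WT (edgeR quasi-likelihood test, adjusted over 14002 genes), where 0.964% of all genes tested were higher in KO and 1.85% were lower at that threshold. At an unadjusted p under 0.05 there were 5 members, Nlrc5, Tgtp2, Tgtp1, Irgm1 and Ifit1, all higher in KO, and 20.2% of all genes passed in either direction. DESeq2 called 3 members, Nlrc5, Tgtp2 and Tgtp1, against 6.52% of all genes. The KO and WT libraries did not overlap for 4 members, Nlrc5, Tgtp2, Tgtp1 and Irgm1, each with every KO library above every WT library, as was the case for 11.0% of all genes. No member had every KO library below every WT library, against 11.4% of all genes. By none of these rules was the count of members far from that background.

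The GTPases and the other members differed in their medians, and the difference depended on KO 3. The median log2 fold change of KO over WT was 0.45 for the 12 GTPases, 0.05 for the other 17 members and -0.02 for all genes tested. Of the GTPases 10 of 12 had a value above 0, with Gbp6 and Tgtp1 among them, against 9 of the other 17, with Oas1a among them. Without KO 3 the medians were -0.03 for the GTPases, -0.04 for the other members and -0.02 for all genes, and 5 of 12 GTPases and 8 of 17 other members stayed above 0. WT 3 was the lowest of the 7 libraries for 8 of 12 GTPases. The share of all genes lowest in WT 3 was not counted, and WT 3 was the highest library for 36.2% of all genes tested. Without WT 3 the medians were 0.41 for the GTPases and 0.19 for the other members. Without KO 3 no member and 0.144% of all genes passed the threshold. The CPM of all 12 GTPases summed to 82.3, 72.8, 190 and 62.2 in KO 1 to KO 4, against 89.9, 76.8 and 53.7 in WT 1 to WT 3. KO 3 was thus above every WT library, whereas the other KO libraries lay within the WT range. The other 17 members summed to 56.0, 53.3, 86.2 and 45.1 CPM in KO 1 to KO 4, against 52.8, 46.7 and 61.1 CPM in WT 1 to WT 3.

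**Figure D1:**
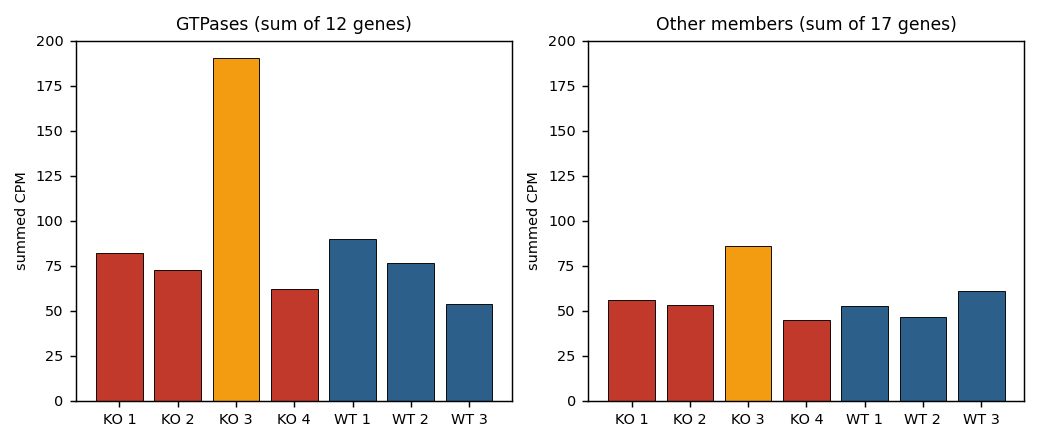
Summed CPM of the 12 GTPases (left) and the other 17 members (right), 1 bar per library, with KO libraries left of WT libraries and KO 3 in orange. The GTPases reached 190 CPM in KO 3 and 53.7 to 89.9 CPM in the other 6 libraries.

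The guanylate-binding proteins are large GTPases that coat pathogen-containing vacuoles, and Gbp7, Gbp3 and Gbp2 lie near each other on chromosome 3. Gbp2 had 6.01, 5.96, 17.7 and 5.96 CPM in KO 1 to KO 4, against 7.10, 6.46 and 5.06 CPM in WT 1 to WT 3. Gbp4 had 11.8, 6.60, 36.9 and 5.55 CPM in KO 1 to KO 4, against 11.4, 9.99 and 10.4 CPM in WT 1 to WT 3. In both genes 1 KO library was high and the other KO libraries lay around or below the WT values. Gbp3 had 2.44, 2.62, 7.77 and 1.93 CPM in KO 1 to KO 4, against 2.39, 3.68 and 2.92 CPM in WT 1 to WT 3. Gbp7 had 6.73, 8.23, 17.4 and 6.66 CPM in KO 1 to KO 4, against 8.26, 10.8 and 5.56 CPM in WT 1 to WT 3. The same library, KO 3, was the highest of all 7 for these 4 genes. Gbp6 was scarcely expressed, at 0.376, 0.517, 0.374 and 0.452 CPM in KO 1 to KO 4, against 0.341, 0.225 and 0.411 CPM in WT 1 to WT 3, and did not share the pattern.

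By edgeR, the log2 fold change was 0.52 (SE 0.42, adjusted p = 0.501) for Gbp2, 0.53 (SE 0.61, adjusted p = 0.640) for Gbp4 and 0.40 (SE 0.32, adjusted p = 0.512) for Gbp6. Without KO 3 it turned to -0.06 for Gbp2, -0.41 for Gbp4, -0.36 for Gbp3 and -0.19 for Gbp7, and stayed at 0.46 for Gbp6. Of the 50-base words in Gbp6 transcripts, 70.7% also occur in other genes, mostly its neighbors Gm43302 and Gbp10, so that its count is uncertain.

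The immunity-related GTPases are smaller GTPases that disrupt vacuoles, with the IRGM proteins as regulators of the others. Tgtp1 (chr11:48985327-48994172, GRCm38) and Tgtp2 (chr11:49057194-49064206) are neighboring copies of the T cell-specific GTPase. Tgtp2 had 2.93, 1.51, 9.42 and 2.01 CPM in KO 1 to KO 4, against 0.921, 0.676 and 0.494 CPM in WT 1 to WT 3. Tgtp1 had 1.28, 1.07, 5.57 and 0.781 CPM in KO 1 to KO 4, against 0.580, 0.375 and 0.165 CPM in WT 1 to WT 3. For both, all 4 KO libraries were above all 3 WT libraries, with KO 3 the highest. The WT values rest on few reads, 17, 10 and 4 for Tgtp1 and 27, 18 and 12 for Tgtp2 in WT 1 to WT 3. The log2 fold change was 2.49 (SE 0.69) for Tgtp2 with an adjusted p of 0.0971 by edgeR, 0.00141 by DESeq2 and 0.111 by edgeR without KO 3, where the value was 1.61 (SE 0.35). For Tgtp1 it was 2.51 (SE 0.81) with an adjusted p of 0.144 by edgeR, 0.0105 by DESeq2 and 0.201 by edgeR without KO 3, where the value was 1.45 (SE 0.44). Of their 50-base words, 81.2% in Tgtp1 and 86.6% in Tgtp2 are shared with other genes, nearly all with each other, so the split of reads between the copies is uncertain.

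Irgm1 (chr11:48861968-48871683), a regulator of the other immunity-related GTPases, had 21.3, 18.2, 26.9 and 16.2 CPM in KO 1 to KO 4, against 15.2, 16.1 and 12.4 CPM in WT 1 to WT 3. The groups did not overlap, but KO 4 and WT 2 were almost equal. Its log2 fold change was 0.50 (SE 0.19, adjusted p = 0.188) by edgeR and 0.35 (SE 0.16, adjusted p = 0.378) without KO 3. Iigp1, an effector that breaks vacuole membranes, had 7.89, 6.99, 27.8 and 5.06 CPM in KO 1 to KO 4, against 8.29, 5.82 and 4.16 CPM in WT 1 to WT 3. Igtp, also called Irgm3, had 9.73, 8.74, 18.5 and 7.11 CPM in KO 1 to KO 4, against 10.7, 8.60 and 6.46 CPM in WT 1 to WT 3. Both overlapped between the groups and were highest in KO 3. Irgm2 had 10.9, 11.2, 21.0 and 9.79 CPM in KO 1 to KO 4, against 23.6, 13.0 and 4.94 CPM in WT 1 to WT 3. Irgm2 was the exception among the immunity-related GTPases, since WT 1 exceeded KO 3 and WT libraries spread more widely than KO libraries. KO over WT, the log2 fold change was 0.97 for Iigp1, 0.36 for Igtp and -0.07 for Irgm2, and without KO 3 it was 0.12, -0.01 and -0.38. Per kilobase of exon, Igtp was the most abundant member in both groups, with a mean level of 5.45 CPM per kb in KO and 4.25 CPM per kb in WT. The annotated spans of Igtp (chr11:58199556-58207591) and Irgm2 (chr11:58199618-58222782) overlap on the plus strand. Of the transcript words of Igtp, 11.8% also occur in Irgm2. The split of reads between Igtp and Irgm2 is therefore uncertain, and so are the rank of Igtp and the exception of Irgm2.

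Mx2, a dynamin-like GTPase that acts against viruses, had 0.902, 1.11, 0.934 and 0.617 CPM in KO 1 to KO 4, against 1.02, 1.09 and 0.700 CPM in WT 1 to WT 3. KO 3 was not high for Mx2, and the groups overlapped, with a log2 fold change of -0.08 (SE 0.28, adjusted p = 0.891, edgeR), and -0.10 without KO 3.

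**Figure D2:**
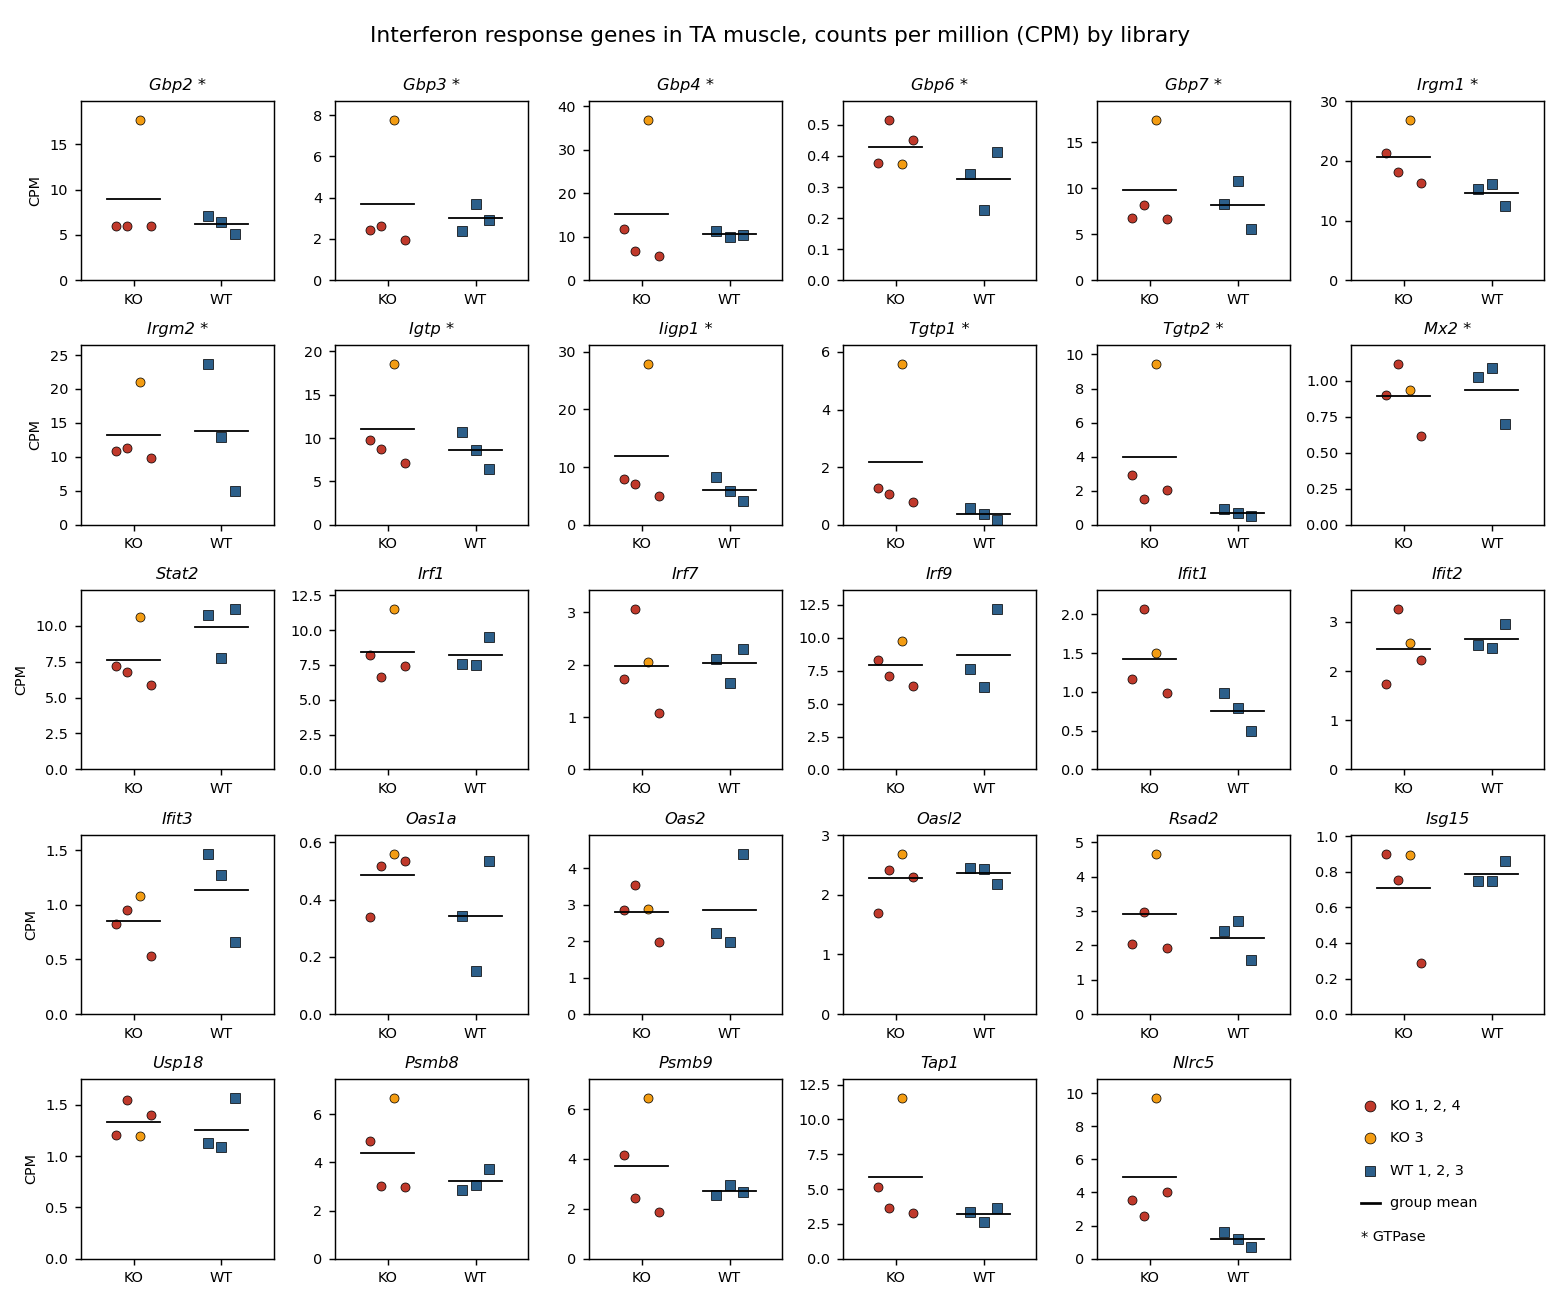
CPM of each of the 29 members, 1 panel per gene, with KO libraries (circles) left of WT libraries (squares), KO 3 in orange, horizontal lines at the group means and every axis starting at 0. KO 3 was the highest of the 7 libraries in 17 of 29 panels, against 8.55% of all genes tested. The KO and WT points were apart for Irgm1, Tgtp1, Tgtp2 and Nlrc5.

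The antigen presentation genes were next in how far KO 3 stood out. Nlrc5 (chr8:94434356-94527272), the transactivator of MHC class I genes, had 3.53, 2.58, 9.68 and 4.03 CPM in KO 1 to KO 4, against 1.64, 1.20 and 0.700 CPM in WT 1 to WT 3. Every KO library was above every WT library, and KO 3 was the highest. Its log2 fold change was 2.06 (SE 0.51, 95% interval 0.89 to 3.22), with an adjusted p of 0.0718 by edgeR and 0.000898 by DESeq2. Without KO 3 it was 1.50 (SE 0.33, adjusted p = 0.115), and without WT 3 it was 1.81 (SE 0.51, adjusted p = 0.0458), the only member past the threshold there, against 12.7% of all genes. No transcript word of Nlrc5 is shared with another gene.

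Psmb9, Tap1 and Psmb8 lie next to each other on chromosome 17 in the MHC region, and the windows around the starts of Psmb9 and Tap1 overlap on opposite strands. Tap1, a subunit of the peptide transporter, had 5.15, 3.66, 11.5 and 3.29 CPM in KO 1 to KO 4, against 3.38, 2.63 and 3.62 CPM in WT 1 to WT 3. Psmb8, an immunoproteasome subunit, had 4.89, 3.02, 6.65 and 2.96 CPM in KO 1 to KO 4, against 2.87, 3.08 and 3.70 CPM in WT 1 to WT 3. Psmb9, another immunoproteasome subunit, had 4.17, 2.42, 6.43 and 1.89 CPM in KO 1 to KO 4, against 2.56, 2.97 and 2.67 CPM in WT 1 to WT 3. In each of these genes KO 3 was highest, KO 1 came next, and KO 2 and KO 4 were the lowest KO libraries. The log2 fold change was 0.88 (SE 0.43, adjusted p = 0.297) for Tap1 and 0.45 (SE 0.30, adjusted p = 0.431) for Psmb8 by edgeR, and without KO 3 it was 0.33 and 0.17. For Psmb9 it was 0.45 with all libraries and 0.05 without KO 3.

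For the transcription factors KO 3 stood out less, at 1.60 times the mean of the other KO libraries for Stat2, 1.55 for Irf1, 1.35 for Irf9 and 1.05 for Irf7. Stat2, the type I interferon signal transducer, had 7.18, 6.80, 10.6 and 5.88 CPM in KO 1 to KO 4, against 10.7, 7.73 and 11.2 CPM in WT 1 to WT 3. Irf9, its DNA-binding partner, had 8.34, 7.11, 9.79 and 6.37 CPM in KO 1 to KO 4, against 7.61, 6.27 and 12.2 CPM in WT 1 to WT 3. For both, WT 3 was the highest library and KO 3 the highest KO library. Irf1, an early target of interferon gamma, had 8.23, 6.64, 11.5 and 7.44 CPM in KO 1 to KO 4, against 7.54, 7.51 and 9.51 CPM in WT 1 to WT 3. KO 3 was the highest library for Irf1, by 1.21 times the highest WT library. The log2 fold change by edgeR was -0.38 (SE 0.22, adjusted p = 0.377) for Stat2, -0.13 (SE 0.25, adjusted p = 0.776) for Irf9 and 0.05 (SE 0.20, adjusted p = 0.906) for Irf1. Without KO 3 it was -0.58 (SE 0.19, adjusted p = 0.225) for Stat2, -0.25 for Irf9 and -0.14 for Irf1. Irf7, the amplifier of type I interferon transcription, ranged from 1.07 to 3.06 CPM in KO and from 1.65 to 2.30 CPM in WT, and its highest library was KO 2. Its log2 fold change was -0.03, and -0.05 without KO 3.

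Among the antiviral effectors other than Rsad2, KO 3 was at most 1.40 times the mean of the other KO libraries. Ifit1, which binds viral RNA caps, had 1.17, 2.07, 1.49 and 0.987 CPM in KO 1 to KO 4, against 0.990, 0.788 and 0.494 CPM in WT 1 to WT 3. KO 4 and WT 1 overlapped narrowly, and the log2 fold change was 0.90 (SE 0.34, adjusted p = 0.193) by edgeR and 0.88 without KO 3. Ifit3, a partner of Ifit1, had 0.827, 0.954, 1.08 and 0.535 CPM in KO 1 to KO 4, against 1.47, 1.28 and 0.658 CPM in WT 1 to WT 3. Oas1a, a sensor of double-stranded RNA, had 0.338, 0.517, 0.560 and 0.535 CPM in KO 1 to KO 4, against 0.341, 0.150 and 0.535 CPM in WT 1 to WT 3. The libraries of the groups overlapped for Ifit3 and Oas1a, with a log2 fold change of -0.42 (SE 0.34, adjusted p = 0.507) for Ifit3 and 0.52 (SE 0.42, adjusted p = 0.510) for Oas1a by edgeR, and -0.56 and 0.44 without KO 3. Ifit3 shares 51.2% of its 50-base words with Ifit3b, and Oas1a shares 57.6% with Oas1g, so that both counts are uncertain. Ifit2, Oas2 and Oasl2 had log2 fold changes of -0.12, -0.02 and -0.05 with overlapping groups, and -0.14, -0.04 and -0.14 without KO 3. Rsad2, the antiviral enzyme viperin, was the only effector with KO 3 at 2 times the mean of the other KO libraries, at 4.67 CPM against 1.93 to 2.98 CPM in the other KO libraries and 1.56 to 2.70 CPM in WT, and its log2 fold change was 0.38 with all libraries and 0.05 without KO 3.

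Isg15 had 0.902, 0.755, 0.897 and 0.288 CPM in KO 1 to KO 4, against 0.751, 0.751 and 0.864 CPM in WT 1 to WT 3. Usp18, which removes Isg15 from proteins and damps the type I receptor, had 1.20, 1.55, 1.20 and 1.40 CPM in KO 1 to KO 4, against 1.13, 1.09 and 1.56 CPM in WT 1 to WT 3. KO 3 was not the highest library for either gene. The low point of Isg15 was KO 4, which enters the ratio of 1.38 for KO 3 over the mean of the other KO libraries. The log2 fold change was -0.14 (SE 0.37, adjusted p = 0.843) for Isg15 and 0.09 (SE 0.22, adjusted p = 0.835) for Usp18 by edgeR, and -0.27 and 0.14 without KO 3.

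**Figure D3:**
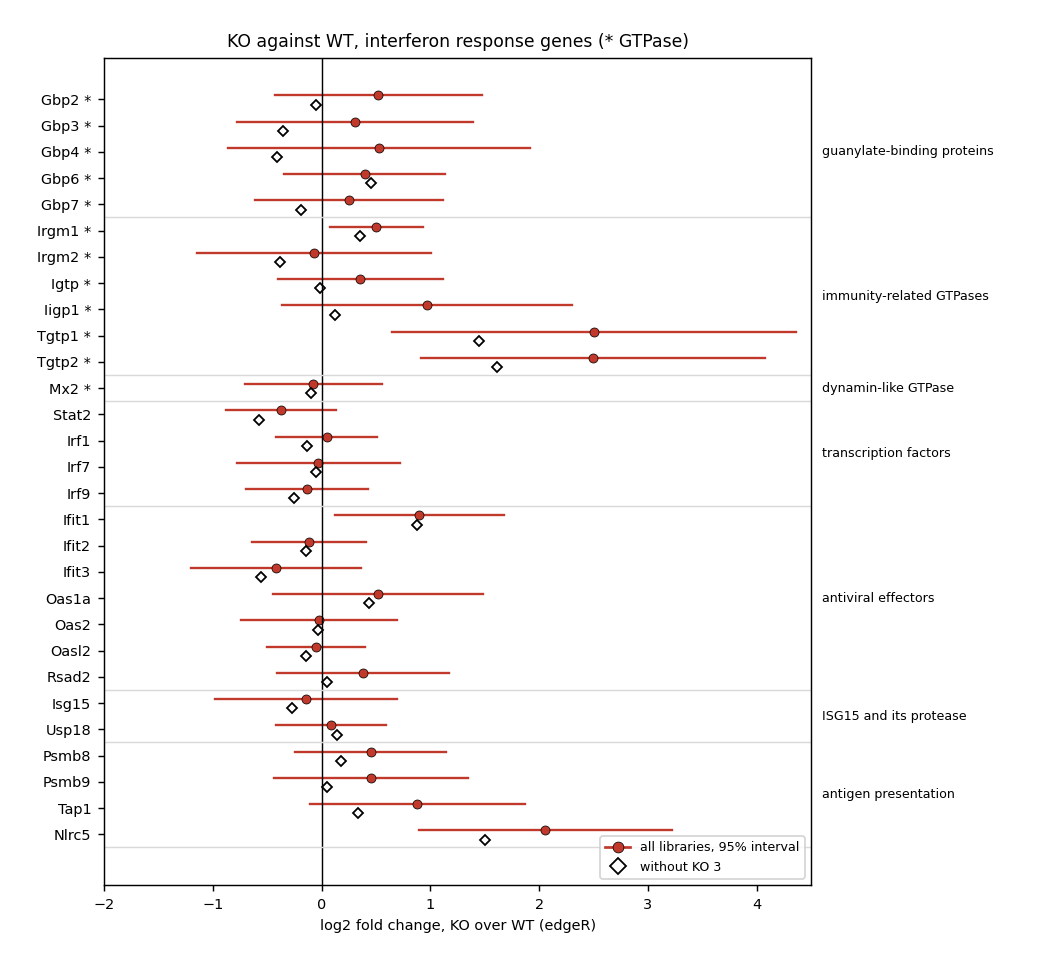
Log2 fold change of KO over WT for each member by edgeR, with 95% intervals for all libraries (red circles) and the value without KO 3 (white diamonds), grouped by role. Of the members 19 of 29 lay above 0 with all libraries, and the intervals of Nlrc5, Tgtp1, Tgtp2, Irgm1 and Ifit1 did not reach 0.

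The KO 3 library was then compared with the other KO libraries, which share its genotype and strain label. This comparison was chosen after the values were seen, and its values are a description. The members too were listed with earlier results of these data known. The shares of all genes given beside them are therefore no test of enrichment, here or among the genes ranked by KO 3 below. The ratio of KO 3 to the mean of KO 1, KO 2 and KO 4 was at least 2 for 12 of 29 members, against 0.679% of all genes with a ratio. The same ratio taken for KO 1, KO 2 or KO 4 against the other KO libraries reached 2 for 0 of 29 members each. Of the 12 members, 8 were GTPases (Tgtp1 at 5.33, Gbp4 at 4.62, Tgtp2 at 4.38, Iigp1 at 4.18, Gbp3 at 3.33, Gbp2 at 2.96, Gbp7 at 2.42 and Igtp at 2.17 times) and 4 were others (Nlrc5 at 2.86, Tap1 at 2.85, Psmb9 at 2.27 and Rsad2 at 2.02 times). Just below lay Irgm2 at 1.98 and Psmb8 at 1.84 times. Intermediate ratios were those of Stat2 at 1.60, Irf1 at 1.55, Irgm1 at 1.45, Ifit3 at 1.40, Isg15 at 1.38, Irf9 at 1.35, Oasl2 at 1.26 and Oas1a at 1.21 times. The median ratio was 2.69 for the GTPases, 1.38 for the other members and 0.99 for all genes tested. Ratios near 1 were those of Mx2 at 1.06, Ifit1 at 1.06, Ifit2 at 1.07, Irf7 at 1.05 and Oas2 at 1.03 times, and Usp18 at 0.86 and Gbp6 at 0.83 times lay lower.

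**Figure D4:**
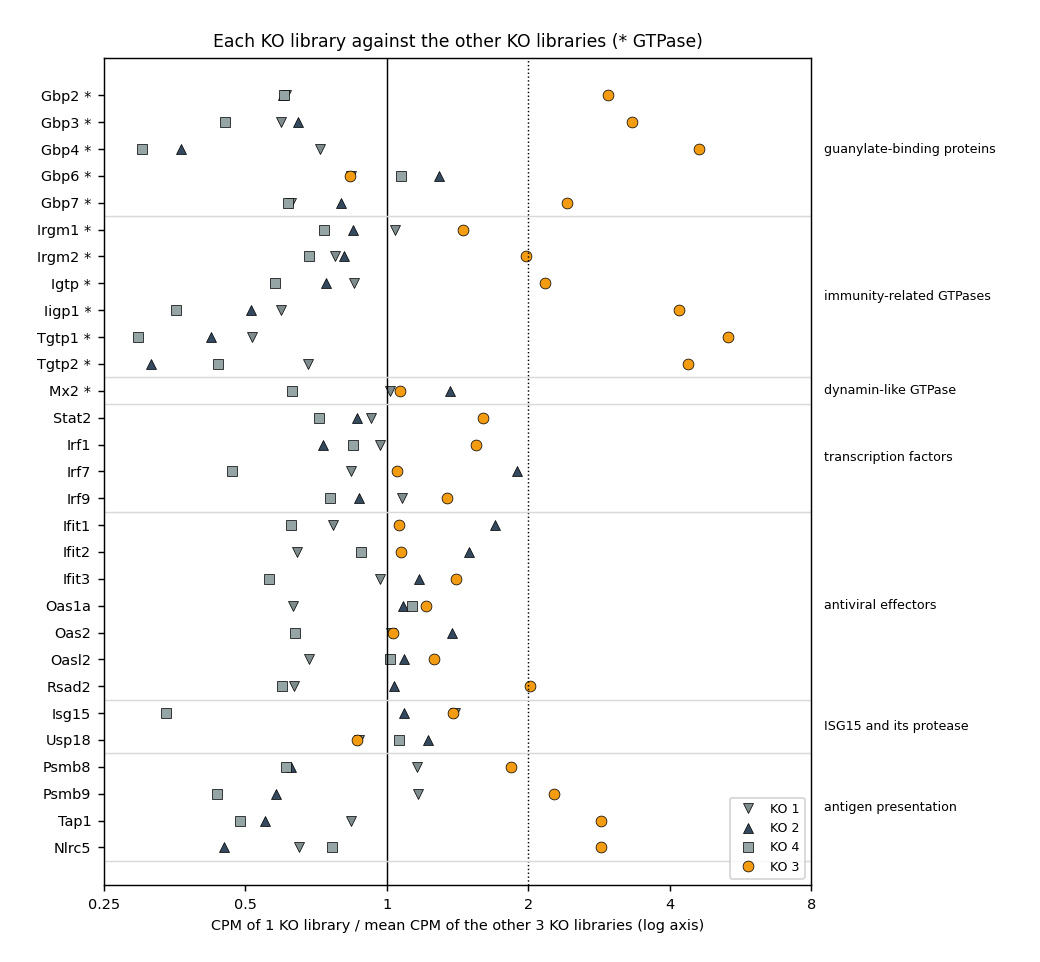
CPM of each KO library over the mean CPM of the other 3 KO libraries, on a log axis, for each member grouped by role, with a solid line at 1 and a dotted line at 2. KO 3 (orange) lay at or beyond the dotted line for 12 members, and no point of KO 1, KO 2 or KO 4 did.

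The members were also placed among the 12077 genes with a mean of at least 1 CPM over the other 6 libraries, a filter that KO 3 does not enter and that Tgtp1 does not pass. Of these 21 genes reached a ratio of 2, and 11 of them were members. The highest ratio was that of Cd274 (PD-L1) at 4.68, followed by Gbp4, Tgtp2 and Iigp1. Of the 20 protein-coding genes with the highest ratios, 10 were members. The others also included Gbp5 at 3.83, the MHC class II gene H2-Aa at 2.86, the GTPase Ifi47 at 2.78 and the monocyte chemokine receptor Ccr2 at 2.77 times. For Ccr2, KO 3 at 1.46 CPM lay within the WT range of 0.976 to 2.15 CPM, and the other KO libraries lay below it.

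**Figure D5:**
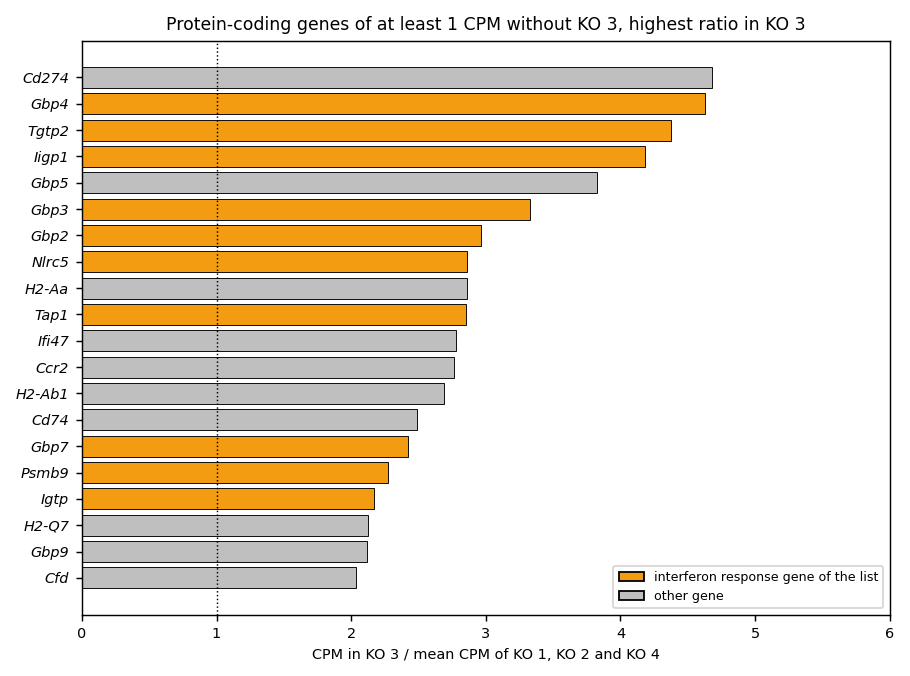
Ratio of CPM in KO 3 to the mean CPM of KO 1, KO 2 and KO 4 for the 20 protein-coding genes with the highest ratio among those of at least 1 CPM on average over the 6 libraries other than KO 3, with members in orange, other genes in grey and a dotted line at 1. Of the 20 bars 10 are members, from Gbp4 at 4.62 to Igtp at 2.17.

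Markers of other cells moved with KO 3 in part. The 8 T and NK lymphocyte markers, all in the table and none with enough reads to be tested, summed to 1.72 CPM in KO 3, against 0.247 to 0.477 CPM in the other KO libraries and 0.409 to 0.451 CPM in WT, and none of the 8 was at 0 in KO 3. Of these Nkg7, a granule protein of cytotoxic cells, had 1, 1, 19 and 0 reads in KO 1 to KO 4, against 1, 0 and 0 reads in WT 1 to WT 3. Cd8a had 7 reads in KO 3, 0 in the other KO libraries, and 0, 2 and 0 in WT 1 to WT 3. Cd3g had 2, 4, 7 and 0 reads in KO 1 to KO 4, against 0, 1 and 3 in WT 1 to WT 3. Klrb1c had 0, 0, 2 and 0 reads in KO 1 to KO 4, against 1, 2 and 0 in WT 1 to WT 3. The remaining markers of the list were not apart in KO 3. Cd3e had 1, 0, 1 and 2 and Cd3d 2, 1, 2 and 0 reads in KO 1 to KO 4. Gzma had 3, 2, 3 and 0 and Cd4 1, 4, 5 and 4 reads in the same libraries. The 7 macrophage markers summed to 69.2 CPM in KO 3, 38.1 to 59.3 CPM in the other KO libraries and 47.1 to 95.4 CPM in WT. Neutrophil markers summed to 0.448 CPM in KO 3 with Ly6g at 0, against 0.329 to 0.601 CPM in the other KO libraries and 1.28 to 4.64 CPM in WT. Only 1 of them had enough reads to be tested, and it fell in KO by edgeR. Dendritic cell markers summed to 1.01 CPM in KO 3, against 0.789 to 1.19 CPM in the other KO libraries. The 7 endothelial markers summed to 216 to 251 CPM in KO and 292 to 339 CPM in WT, with 1 that fell, and the 4 fibro-adipogenic markers to 304 to 390 CPM in KO, highest in KO 3, and 309 to 330 CPM in WT. The part of any of these cells in the values of KO 3 was not tested.

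Of the ligands, 4 were listed, and interferon alpha genes were not examined. Ifng, which encodes interferon gamma, had 2 reads in KO 3 and 0 in each of the other 6 libraries, and Ifnb1, Ifnl2 and Ifnl3 had 0 reads in all 7. Of 26 listed genes for ligands, receptors and signaling, 25 were in the table and 20 passed the filter, with a median log2 fold change of -0.08, and -0.15 without KO 3. None rose and 1 fell in KO by edgeR. At an unadjusted p under 0.05 there were 8 of 20, against 20.2% of all genes, and 6 of 20 had every KO library below every WT library, against 11.4% of all genes. DESeq2 called 3 of them, Tmem173, Socs1 and Tlr7, against 6.52% of all genes. The gene that fell by edgeR was Tmem173, the DNA-sensing adaptor STING, with 2.22, 1.91, 2.09 and 2.14 CPM in KO 1 to KO 4, against 4.40, 3.15 and 4.61 CPM in WT 1 to WT 3. The groups did not overlap, and its log2 fold change was -0.95 (SE 0.18, adjusted p = 0.0332) by edgeR with all libraries, and -0.96 (adjusted p = 0.115) without KO 3. KO 3 was not apart for Tmem173. Socs1, an inhibitor of interferon signaling, had 1, 1, 7 and 5 reads in KO 1 to KO 4, against 29, 11 and 99 reads in WT 1 to WT 3. Every KO library was below every WT library in CPM, on few reads in KO and with WT 3 high. Its log2 fold change was -3.68 (SE 0.90), with an adjusted p of 0.0695 by edgeR and 0.000898 by DESeq2, and it was -2.34 without WT 3 (adjusted p = 0.0358, edgeR).

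Of 52 other interferon-induced genes, all were in the table and 41 passed the filter, with a median log2 fold change of 0.03, and -0.04 without KO 3. By edgeR 0 rose and 0 fell, 7 of 41 had an unadjusted p under 0.05, against 20.2% of all genes, and DESeq2 called 2 of 41, against 6.52% of all genes. The smallest p belonged to Gbp10, a further guanylate-binding protein, and B2m, the light chain of MHC class I, which are also the 2 that DESeq2 called. Gbp10 shares transcript words with Gbp6, which makes its count uncertain. Gbp10 had 27.4, 32.4, 43.5 and 32.4 CPM in KO 1 to KO 4, against 21.2, 23.5 and 15.2 CPM in WT 1 to WT 3. B2m had 99.0, 83.5, 128 and 72.2 CPM in KO 1 to KO 4, against 52.5, 48.4 and 66.4 CPM in WT 1 to WT 3. All KO libraries were above all WT libraries for both genes, and KO 3 was the highest. The log2 fold change was 0.76 (SE 0.20, adjusted p = 0.0846) for Gbp10 and 0.78 (SE 0.21, adjusted p = 0.0936) for B2m by edgeR, and 0.62 and 0.61 without KO 3. The ratio of KO 3 to the other KO libraries was at least 2 for 4 of the 41, against 0.679% of all genes, namely Cd274, Gbp5, Ifi47 and Gbp9.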

How the data were processed

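The authors deposited unnormalized whole-number counts of reads for each Ensembl gene. The submitters' processing notes list HTSeq 0.6.1, STAR 2.5.2b, Trim Galore 0.4.2 and CASAVA 1.8.2, without their settings, whereas the study's methods describe Salmon on ribosome-depleted stranded libraries. Neither build nor annotation nor strand setting of the counts is given in the sources used here, so reads of gene copies, overlapping and antisense genes are uncertain. Of the rows, 5 were summary rows and stayed out of library sizes and tests; reads without a unique alignment were 24.4% to 34.3% of all reads. GENCODE M21 (GRCm38) gave symbols and positions for 48435 genes.

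The main test was the edgeR 4.0.16 quasi-likelihood test in R 4.3.3 on genotype, with TMM factors and filterByExpr at a minimum count of 10. P-values were adjusted by Benjamini-Hochberg over all 14002 genes tested, and the threshold was 0.05. DESeq2 1.42.0 was run as well. CPM are TMM-scaled, SE is on the log2 scale, and intervals are 95%. Library pairs all differed by more than sampling noise, and pairs with WT 3 differed most. Chi-square per degree of freedom was 170 to 236 for pairs with WT 3, against 6.99 to 71.8 for the other pairs. The steps were tested on simulated data. Members, lists and markers were chosen with earlier results of these data known. Every member is named or counted in its role group, with full statistics for the 3 with the smallest p in each larger group and for Isg15, Usp18 and Mx2. From other lists, genes past the threshold or else the 2 with the smallest p are given. Alternatives were RLE factors, mitochondrially encoded genes left out, no filter, a minimum count of 50, a log2 fold threshold of 1, a replicate block and each library left out. Results for some listed genes and markers are not reported here.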

Additional observations from a re-analysis of the deposited data

Results flagged for a closer look

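In 6 members 1 KO library lay far from the other KO libraries, with a gap to its nearest neighbor that made up most of the range of the 4 KO libraries. That share of the range was 0.995 for Gbp2, 0.896 for Tgtp1, 0.882 for Gbp3, 0.875 for Iigp1, 0.87 for Irgm2 and 0.855 for Gbp7. In all 6 the library was KO 3 and it was the high one, and all 6 are GTPases. The rule nominally flags about 1 in 20 groups of this size by chance. The share it flags among all genes was not computed, so the count of 6 has no measured background. The members are not independent of each other, since they were measured in the same libraries. The WT group of 3 was too small for this check.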

How the results depend on the processing

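Among all genes, the 394 calls became 1006 with DESeq2, 235 with the log2 fold threshold of 1, 0 with the replicate block, and 20 (without KO 3) to 1802 (without WT 3) when 1 library was left out. Among the members, the count of 0 became 3 with DESeq2, 2 without a filter on low counts (Nlrc5 and Tgtp2), and 0 to 1 when 1 library was left out (1, Nlrc5, without WT 3), and stayed at 0 with the replicate block and the other settings. Whether the replicate numbers pair the libraries is not known. Same-numbered KO and WT libraries deviated with correlations of -0.31, 0.26 and -0.12, and so few pairs cannot settle it. Of 29 members 15 kept 1 sign in every alternative that gave a value, which was 13 alternatives or, for 8 members that did not pass the minimum count of 50, 12, and no member that changed sign was past the threshold. With DESeq2 the log2 fold change turned to 0.00018 for Irf7 and 0.014 for Oas2, and without a filter to 0.015 for Oas2. With the replicate block it turned to 0.11 for Isg15, 0.14 for Irf7, 0.18 for Oas2, 0.078 for Mx2 and 0.19 for Irgm2. When 1 library was left out, it ranged from -0.056 to 0.67 for Gbp2, -0.36 to 0.52 for Gbp3, -0.41 to 0.80 for Gbp4, -0.19 to 0.51 for Gbp7, -0.014 to 0.55 for Igtp and -0.14 to 0.18 for Irf1, each lowest without KO 3. It also ranged from -0.46 to 0.56 for Irgm2, -0.29 to 0.017 for Ifit2, -0.32 to 0.17 for Irf7, -0.30 to 0.19 for Irf9, -0.27 to 0.11 for Isg15, -0.23 to 0.062 for Mx2, -0.21 to 0.42 for Oas2 and -0.14 to 0.066 for Oasl2. Causes were not tested. Members under 1 CPM, such as Gbp6, Oas1a, Isg15 and WT values of Tgtp1, rest on few reads.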

Other observations

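The MHC class II genes, which are not members, were also high in KO 3, and were named after their values were seen. H2-Aa had 13.2, 17.96, 39.1 and 9.91 CPM in KO 1 to KO 4, against 10.7, 8.30 and 10.3 CPM in WT 1 to WT 3. Cd74, the invariant chain, had 15.7, 17.9, 38.9 and 13.4 CPM in KO 1 to KO 4, against 13.1, 8.67 and 14.0 CPM in WT 1 to WT 3. H2-Ab1 had 2.69 times the mean of the other KO libraries in KO 3. Ciita, the class II transactivator, was at 1.33 times that mean, with 0.617 to 1.01 CPM in KO and 0.494 to 1.06 CPM in WT. None of these 4 genes was past the threshold in KO against WT by edgeR, and their lowest adjusted p was 0.234.

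H2-Q7, a nonclassical MHC class I gene also named after its values were seen, had 5.86, 3.77, 8.52 and 2.38 CPM in KO 1 to KO 4, against 0.853, 0.601 and 0.782 CPM in WT 1 to WT 3. It rose in KO with a log2 fold change of 2.78 (SE 0.46, adjusted p = 0.0230) by edgeR, and without KO 3 the value was 2.42 (adjusted p = 0.0683). Like Nlrc5, Tgtp1 and Tgtp2 it was higher in every KO library, and for none of these can genotype and strain label be told apart.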
